A study of Sus scrofa with 37 samples.

Results

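Beta cells and alpha cells of the fetal pig pancreas were compared at embryonic day 40 (E40), the earliest age of the series. The comparison used 9 of the 37 libraries of purified pig islet cells, chosen by their labelled age and cell type: 6 libraries of pancreatic beta cells and 3 of pancreatic alpha cells. Both groups are cells sorted by FACS from the pancreas of Sus scrofa, and no genotype, treatment or agent is labelled for either. Not given in the sources used here are breed, sex, litter, the sorting markers and the number of fetuses behind a library. Since no library is tied to an animal, the p-values below measure only the spread between these libraries, which may be partly technical. Expression was measured by stranded sequencing of total RNA and is given as TPM, a share of all transcripts corrected for transcript length that sums to 1000000 in every library.

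Beta cells make insulin and alpha cells make glucagon, hormones with opposing effects on blood glucose. Both arise from endocrine progenitors of the pancreatic epithelium that pass through a phase of NEUROG3 expression, and transcription factors such as PDX1 and NKX6-1 on the beta side hold the fates apart. Each hormone is cut from a larger precursor by prohormone convertases, PCSK1 and PCSK2, and stored in granules with chromogranins and secretogranins.

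The sorted cells matched their labels by hormone. INS, the insulin gene (ENSSSCG00000033740.1), took 9.41% to 16.0% of all TPM in the beta libraries, 13.0 ± 2.27% (SD, n = 6). In the 3 alpha libraries INS stood at 1122, 134 and 61.2 TPM. GCG, the glucagon gene (ENSSSCG00000015895.3), took 18.8%, 19.1% and 17.4% of the alpha libraries, 18.5 ± 0.913% (SD, n = 3). In the beta libraries it ranged from 21.9 to 2297 TPM with a median of 93.6. Neither hormone overlapped between the groups. Beta replicate 1 held the most GCG (2297 TPM), and alpha replicate 1 held the most INS (1122 TPM) among the alpha libraries and the fewest genes at 1 TPM or more (11693, against 13511 to 14812 in the other libraries). Results that lose their call without either of these libraries are named beside their values.

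Among 14879 genes tested with limma on log2(TPM + 1), 1494 (10%) passed an adjusted p of 0.05 (Benjamini-Hochberg over all genes tested). Of these, 1060 (7.12%) were higher in beta cells and 434 (2.92%) were lower. The groups did not overlap for 2228 genes (15%) higher in beta cells and 629 (4.23%) lower. The median of all genes was 0.32 higher in beta cells on this scale, and the GCG-rich alpha libraries gave 34.0 ± 0.752% of their TPM to their 10 highest genes against 25.9 ± 1.67% in beta libraries (SD, n = 3 and n = 6). Median-of-ratios scaling brought the median difference to 0.064 and the split to 566 higher and 700 lower. After removal of 4 hormone genes and the mitochondrially encoded genes the median difference was 0.164 and the split was 616 and 557. A difference should therefore be read against a centre of 0.32, and genes whose call ended under median-of-ratios scaling are marked. The cause of this centre was not tested. Without alpha replicate 1, 990 genes were called and the median difference was 0.249. Beta replicates 1 and 2 carry sample numbers below 100 and the other 7 libraries higher ones; their meaning was not known here, and the 7 libraries alone gave 730 higher and 434 lower. Differences are beta minus alpha on the log2(TPM + 1) scale, which understates changes of low genes, with ± for the standard error.

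The peptide hormones separated the groups beyond INS and GCG. Of 21 hormone genes tested, 8 were higher in beta cells and 4 were lower, shares of 38.1% and 19.05% against 7.12% and 2.92% of all genes, with a median difference of 0.90 against 0.32 for all genes. These counts include INS and GCG, the hormones by which the cell types are known, so that part of them only checks the labels. INS differed by 9.24 ± 0.71 (limma, adjusted p = 2.45e-05) and by 10.45 without alpha replicate 1. GCG differed by -10.32 ± 1.26 (adjusted p = 0.000495) and by -11.12 without beta replicate 1.

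Besides GCG, 3 peptide genes were higher in alpha cells at E40. PPY, pancreatic polypeptide (ENSSSCG00000017368.3), was at 357, 342 and 137 TPM in alpha cells and at 0 to 9.55 TPM in beta cells with a median of 0.905. PYY, peptide YY (ENSSSCG00000025414.2), was at 54.4, 62.0 and 26.4 TPM against 0 to 1.08 in beta cells. PENK, the precursor of enkephalins (ENSSSCG00000006243.3), was at 34.1, 63.8 and 45.9 TPM against 0.171 to 8.76. For all 3 genes every alpha library exceeded every beta library. The differences were -6.73 ± 0.80 for PPY (adjusted p = 0.000408), -4.99 ± 0.40 for PYY (adjusted p = 3.06e-05) and -4.01 ± 0.64 for PENK (adjusted p = 0.00280).

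Both cell types held UCN3, urocortin 3, which was higher in beta cells. It is a peptide of the corticotropin-releasing factor family that beta cells co-secrete with insulin (ENSSSCG00000028822.2). UCN3 ranged from 530 to 792 TPM with a median of 645, against 119, 103 and 98.5 TPM in alpha cells, a difference of 2.62 ± 0.16 (adjusted p = 4.15e-06). TAC1, which encodes substance P, ranged from 101 to 207 TPM against 62.7, 26.9 and 56.9, and GAL, galanin, from 18.6 to 89.6 against 0, 9.01 and 0.863. Both were called, at 1.69 ± 0.28 (adjusted p = 0.00327) and 4.21 ± 0.70 (adjusted p = 0.00336), and neither overlapped between the groups. SST, the somatostatin of delta cells, did not pass (1.03 ± 1.38, adjusted p = 0.652). It stood at 230 TPM in beta replicate 1 and had a median of 1.54 over the beta libraries, against 0.276, 2.39 and 1.86 in alpha cells. IAPP, which encodes amylin, was listed at 0 in all 6 beta libraries and GHRL, ghrelin, in all 9 libraries, and neither was tested. IAPP was at most 2.24 TPM in any beta or alpha library of the 4 later ages. Whether the annotation behind the table covers the transcript in use was not known here, so its values do not show that IAPP was absent.

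**Figure D1:**
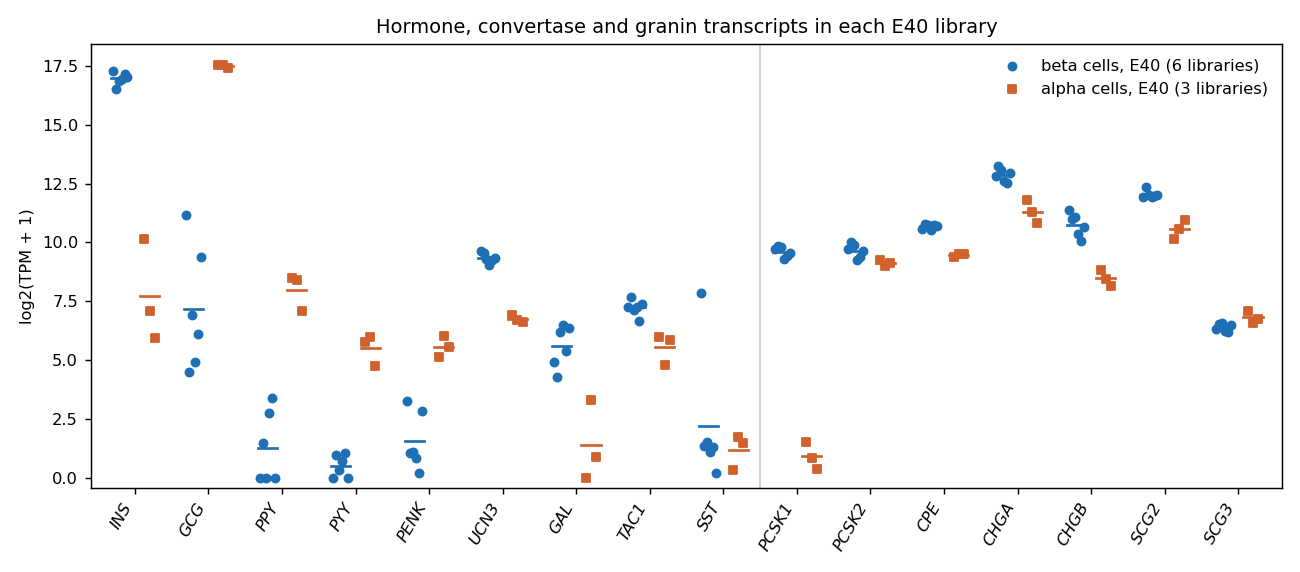
Expression as log2(TPM + 1) of islet hormone genes and of prohormone processing and granule genes in each of the 6 beta and 3 alpha libraries at E40; each point is 1 library and each short line the mean of a group. INS, UCN3, GAL, TAC1 and PCSK1 lie higher in every beta library, GCG, PPY, PYY and PENK lie higher in every alpha library. PCSK2 also lies higher in every beta library, by a narrow gap, and was not called.

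The machinery that matures hormones differed most at 1 convertase. PCSK1 (prohormone convertase 1/3, ENSSSCG00000014169.3), which cleaves proinsulin, ranged from 623 to 921 TPM in beta cells with a median of 798. In alpha cells it was at 1.93, 0.807 and 0.315 TPM. Its difference of 8.68 ± 0.24 (adjusted p = 6.29e-09) was the largest after INS among called genes higher in beta cells with a mean of at least 10 TPM there. PCSK2, prohormone convertase 2, which releases glucagon and also acts on proinsulin, was not called. It ranged from 619 to 1027 TPM in beta cells and stood at 608, 515 and 563 TPM in alpha cells, without overlap, a difference of 0.51 ± 0.18 (adjusted p = 0.0998); the gene was chosen after its values were seen. Of 25 genes of prohormone processing and granule cargo, 10 were higher in beta cells (40% against 7.12% of all genes) and none lower. Under median-of-ratios scaling the counts were 9 and 4, SCG3 being among the 4 (-0.72, adjusted p = 0.0251).

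Transcripts of several granule proteins were higher in beta cells. CHGA, chromogranin A, ranged from 5901 to 9787 TPM against 3532, 2492 and 1799, a difference of 1.57 ± 0.26 (adjusted p = 0.00361). CHGB, chromogranin B, ranged from 1060 to 2653 TPM against 458, 352 and 287.7 and differed by 2.26 ± 0.28 (adjusted p = 0.000583). SCG2, secretogranin 2, ranged from 3904 to 5215 TPM against 1148, 1511 and 1977 and differed by 1.48 ± 0.21 (adjusted p = 0.00109). No alpha library reached the lowest beta library for any of the 3. CPE, the carboxypeptidase that trims the cleaved hormone, was also higher (1.22 ± 0.14, adjusted p = 0.000262), as were the zinc transporter of insulin granules SLC30A8 (1.64 ± 0.19, adjusted p = 0.000303) and the disulfide oxidase ERO1B (3.18 ± 0.22, adjusted p = 1.23e-05). SCG5, the chaperone of PCSK2, was at 261 to 368 TPM in beta cells, stood at 317.1, 333 and 336 TPM in alpha cells and was not called (adjusted p = 0.843). Also not called were SCG3 (-0.42 ± 0.16, adjusted p = 0.117) and VGF (0.28 ± 0.29, adjusted p = 0.551), a granule protein at 177.2 to 433 TPM in beta cells and at 261, 202 and 166.6 TPM in alpha cells.

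Among the lists of cell type markers, 22 of 29 beta cell markers were tested. Of these, 18 were higher in beta cells and none lower, with a median difference of 2.88. Of 23 tested alpha cell markers, 15 were lower in beta cells and none higher, with a median of -1.97. Without alpha replicate 1 the counts were 17 and 15. Under median-of-ratios scaling 17 beta cell markers were higher in beta cells and 1 lower, and 16 alpha cell markers were lower and none higher. These markers define the cell types, so that their counts check the labels. Several genes named in other paragraphs are also among these markers, such as PDX1, NKX6-1, MNX1, IRX1, IRX2, PCSK1, SLC2A2, HADH, GC and GPR119. Part of the counts of the other lists therefore also checks the labels.

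Islet transcription factors split both ways. Of 41 tested, 13 were higher in beta cells and 10 lower, shares of 31.7% and 24.4% against 7.12% and 2.92% of all genes. On the beta side, PDX1, a master regulator of pancreas and beta cell identity (ENSSSCG00000035817.1), ranged from 90.5 to 189 TPM against 0.761, 5.73 and 2.72. NKX6-1, which represses alpha cell genes in beta cells, ranged from 67.6 to 103 TPM against 15.01, 5.61 and 3.62. Neither gene overlapped between the groups, and the differences were 5.08 ± 0.40 (adjusted p = 2.56e-05) and 3.37 ± 0.34 (adjusted p = 0.000121). MNX1, which is needed to keep beta cell identity, ranged from 29.9 to 92.9 TPM against 0.192, 12.04 and 9.58. Its difference of 3.09 ± 0.67 (adjusted p = 0.0147) was 1.99 without alpha replicate 1 (adjusted p = 0.0111). The thyroid hormone receptor THRB was at 24.1 to 46.5 TPM against 6.78, 1.05 and 1.10 and differed by 3.38 ± 0.42 (adjusted p = 0.000549).

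A further group of factors was also higher in beta cells. PAX6, required for both alpha and beta cells, ranged from 415 to 845 TPM in beta cells and stood at 302, 266 and 291 in alpha cells, a difference of 1.06 ± 0.21 (adjusted p = 0.00967). RFX3 differed by 1.35 ± 0.18 (adjusted p = 0.000862), ONECUT2 by 3.17 ± 0.38 (adjusted p = 0.000473), HNF4G by 1.81 ± 0.29 (adjusted p = 0.00272) and ESRRG by 3.01 ± 0.51 (adjusted p = 0.00377). NEUROD1, an activator of INS, had an adjusted p of 0.0456 that rose to 0.232 under median-of-ratios scaling and was above 0.05 when any library other than beta replicate 1 or alpha replicate 1 was left out (up to 0.133). The call of FOXO1 (1.02 ± 0.22, adjusted p = 0.0162) was lost without alpha replicate 1 or 3, reaching 0.0648. That of LMX1B (2.03 ± 0.50, adjusted p = 0.0277) was lost without beta replicate 2, 3 or 6 or alpha replicate 2 or 3, reaching 0.098.

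On the alpha side, IRX1 and IRX2, neighbouring members of the Iroquois family, were at 438, 236 and 246 TPM and at 88.5, 73.2 and 71.9 TPM in alpha cells. In beta cells they reached at most 7.44 and 7.73 TPM, both in beta replicate 1. They differed by -7.21 ± 0.70 (adjusted p = 9.84e-05) and -4.61 ± 0.46 (adjusted p = 0.000118), with no overlap between the groups. The ETS factor ETV1 was at 102, 123.7 and 124.3 TPM in alpha cells against 2.44 to 9.96 in beta cells and differed by -4.15 ± 0.36 (adjusted p = 4.76e-05).

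Other factors that are needed by several endocrine types were also higher in alpha cells at E40. RFX6, a factor needed for most islet endocrine cells, stood at 391, 297 and 326 TPM in alpha cells and ranged from 80.5 to 116 TPM in beta cells, a difference of -1.69 ± 0.16 (adjusted p = 7.34e-05). ISL1, a LIM homeobox factor of all islet cell types, was at 259, 143 and 167.4 TPM in alpha cells against 43.4 to 78.7 (-1.63 ± 0.26, adjusted p = 0.00257). FOXA1, a pioneer factor of the pancreatic endoderm, was at 17.7, 16.9 and 15.4 TPM in alpha cells against 1.01 to 4.60 (-2.36 ± 0.37, adjusted p = 0.00255). FEV, a factor of endocrine precursors and serotonergic cells, was at 26.7, 51.8 and 65.3 TPM in alpha cells against 0.596 to 14.3 (-3.14 ± 0.59, adjusted p = 0.00701). None of these 4 overlapped between the groups.

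**Figure D2:**
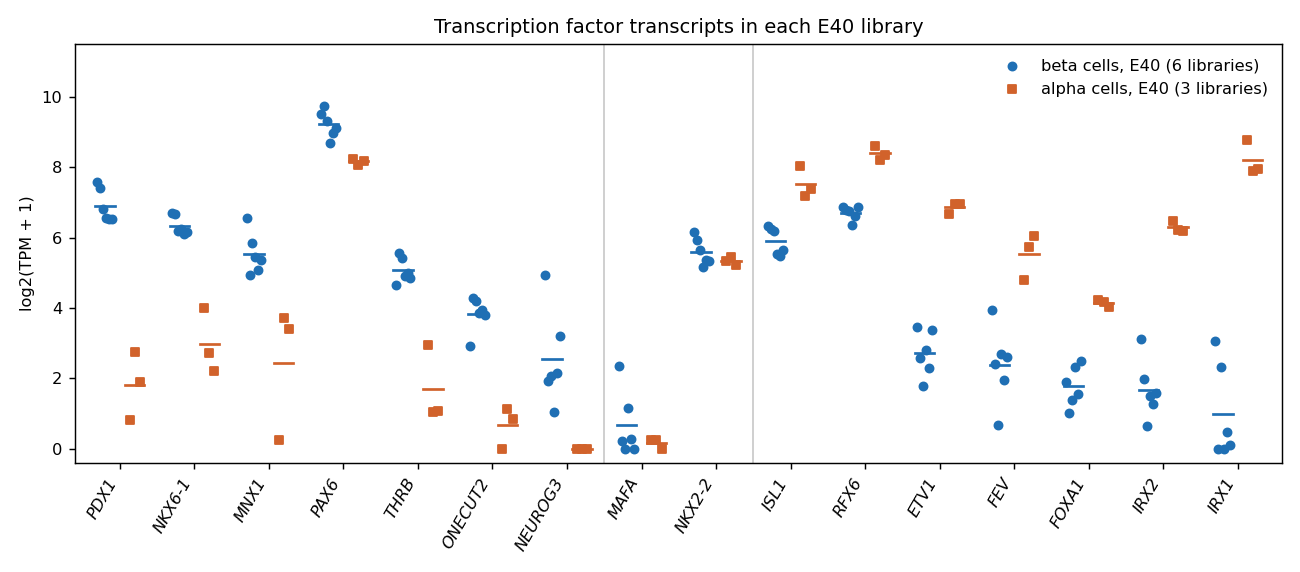
Expression as log2(TPM + 1) of islet transcription factors in each of the 6 beta and 3 alpha libraries at E40, in order of factors higher in beta cells, factors not called or not tested, and factors higher in alpha cells; each point is 1 library and each short line the mean. PDX1 and NKX6-1 separate from the alpha libraries on 1 side, IRX1 and IRX2 on the other, and NKX2-2 overlaps between the groups.

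A further set of islet factors was not called at E40. MAFA, a factor of mature beta cells, ranged from 0 to 4.13 TPM in beta cells with a median of 0.195 and was too low to be tested. NKX2-2 ranged from 35.2 to 70.3 TPM in beta cells and stood at 39.4, 42.8 and 36.6 TPM in alpha cells (0.27 ± 0.23, adjusted p = 0.461). INSM1, FOXA2, HNF4A, MYT1 and PROX1 had differences between -0.33 and 0.50 with adjusted p from 0.186 to 0.837. MEIS2 (adjusted p = 0.0721) was called only without alpha replicate 2 (adjusted p = 0.0493), among the fits that left out 1 library.

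The endocrine progenitor genes NEUROG3 and PAX4 were at most 29.9 and 22.2 TPM in any library. NEUROG3, the transient driver of endocrine fate (ENSSSCG00000034488.1), ranged from 1.08 to 29.9 TPM in beta cells with a median of 3.33 and was listed at 0 in all 3 alpha libraries. It was called (adjusted p = 0.0443), with the highest value in beta replicate 1. The call was lost without beta replicate 2, 3, 5 or 6 or any 1 alpha library, reaching 0.11, and under median-of-ratios scaling (adjusted p = 0.0507). PAX4, a target of NEUROG3, ranged from 1.37 to 22.2 TPM against 0, 2.25 and 2.15 and was not called (adjusted p = 0.138). Of 24 endocrine progenitor factors, 3 were higher in beta cells and 1 lower, shares of 12.5% and 4.17% against 7.12% and 2.92% of all genes.

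Secreted, matrix and adhesion genes supplied several of the largest differences. ESM1, a secreted proteoglycan better known from endothelium (ENSSSCG00000016900.3), ranged from 324 to 498 TPM in beta cells and stood at 1.02, 0.252 and 0 TPM in alpha cells, a difference of 8.10 ± 0.23 (adjusted p = 6.29e-09). PECAM1, a defining endothelial marker, ranged from 3.24 to 18.2 TPM in the beta libraries and was at 0.0251, 1.70 and 3.75 in alpha libraries (adjusted p = 0.0889). EGFL7, another endothelial marker, was called in the opposite direction, at 108.9, 48.3 and 53.3 TPM in alpha cells against 12.3 to 21.3 in beta cells (-1.83 ± 0.27, adjusted p = 0.00165). ESM1 and EGFL7 were the called genes among 11 endothelial markers tested. RSPO3, an amplifier of Wnt signalling, ranged from 25.4 to 81.2 TPM in beta cells and was listed at 0 in every alpha library (adjusted p = 9.52e-06). NELL1 and NELL2, related secreted glycoproteins, lay on opposite sides. NELL1 ranged from 35.6 to 62.0 TPM in beta cells against 0, 0.332 and 0, and NELL2 was at 62.7, 71.4 and 69.8 TPM in alpha cells against 0 to 4.43. The differences were 5.50 ± 0.25 (adjusted p = 4.73e-07) and -5.02 ± 0.47 (adjusted p = 7.87e-05).

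Guidance and adhesion genes of neurons were among the called genes, 10 of 62 higher in beta cells and 6 lower, shares of 16.1% and 9.68% against 7.12% and 2.92% of all genes. CNTNAP2, a neurexin family protein, ranged from 33.7 to 138 TPM in beta cells and was below 0.1 TPM in all alpha libraries (6.04 ± 0.39, adjusted p = 8.06e-06). ROBO1, a receptor for SLIT ligands, ranged from 50.9 to 90.1 TPM against 0.147, 1.52 and 0.822 (5.18 ± 0.28, adjusted p = 2.10e-06). SEMA3A, a secreted semaphorin, ranged from 36.8 to 53.8 TPM against 0.0522, 5.82 and 5.60 (3.63 ± 0.51, adjusted p = 0.00113). The protocadherin PCDH17 ranged from 55.6 to 108 TPM against 0.380, 6.33 and 4.25 (4.32 ± 0.46, adjusted p = 0.000187). All 4 were without overlap, and alpha replicate 1 was the lowest alpha library for ROBO1, SEMA3A and PCDH17. In the other direction SEMA3E was at 5.62, 23.4 and 25.2 TPM in alpha cells against 1.23 to 3.23 in beta cells (-2.26 ± 0.45, adjusted p = 0.00972), a call lost without alpha replicate 3 (adjusted p = 0.0532). FAT3, an atypical cadherin whose symbol 2 identifiers share and whose value is therefore uncertain, was at 21.7, 21.2 and 21.5 TPM against 0 to 2.30 (-3.57 ± 0.38, adjusted p = 0.000193).

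Of 47 matrix genes, 6 were higher in beta cells and none lower, 12.8% and 0% against 7.12% and 2.92% of all genes, with a median difference of 0.86 against 0.32 for all genes. FBN1, fibrillin 1, ranged from 34.4 to 67.9 TPM against 4.29, 2.90 and 2.10 and differed by 3.52 ± 0.27 (adjusted p = 2.56e-05). FBLN1, fibulin 1, differed by 1.28 ± 0.25 (adjusted p = 0.00967), and the collagen IV chain COL4A2 by 1.46 ± 0.31 (adjusted p = 0.0148), the latter call being lost without alpha replicate 3 (0.0648). Summed over 26 mesenchyme markers, the beta libraries held 252 to 496 TPM and the alpha libraries 180 to 188. COL1A1, which defines fibroblasts, ranged from 6.94 to 27.9 TPM in beta libraries and was at 4.71, 3.18 and 5.15 in alpha libraries (adjusted p = 0.0650; called without beta replicate 3, 0.0458). The part of mesenchymal cells in the matrix genes was not tested. In sorted bulk libraries, fewer cells of a type and less RNA per cell cannot be told apart.

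Signalling genes of the Notch, Wnt, Hedgehog, BMP and FGF pathways were called in 6 of 56 cases higher in beta cells and in 4 lower, 10.7% and 7.14% against 7.12% and 2.92% of all genes, and under median-of-ratios scaling in 4 and 7. GLI2, a transcription factor of Hedgehog signalling, was at 12.5, 10.3 and 9.03 TPM in alpha cells and at most 0.508 TPM in beta cells (-3.27 ± 0.31, adjusted p = 8.48e-05). It passed the filter on low values only through the alpha libraries, where it was high, and was not tested when any 1 of them was left out. The Notch ligand DLL4 ranged from 6.91 to 14.1 TPM in beta cells against 0.468, 2.11 and 3.25 (1.92 ± 0.38, adjusted p = 0.00906). HEY1, a Notch target, ranged from 4.18 to 6.46 TPM against 0.0490, 1.45 and 1.03 (1.89 ± 0.34, adjusted p = 0.00579). DKK3, of the Dickkopf family, was higher in beta cells (2.63 ± 0.36, adjusted p = 0.000916) and FGF12 lower (-2.63 ± 0.35, adjusted p = 0.000844).

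Several of the largest differences have not been named above. HOPX, an atypical homeodomain protein, ranged from 167.4 to 330 TPM in beta cells against 4.75, 0.0979 and 0.108 (7.04 ± 0.48, adjusted p = 9.52e-06). It belongs to the list of beta cell markers, so that its difference also checks the labels. The glypican GPC5 ranged from 155 to 277 TPM against 8.41, 5.70 and 6.39 (4.61 ± 0.21, adjusted p = 4.71e-07), and the channel ASIC4 from 74.9 to 172 TPM against 0.0654, 4.42 and 2.73 (5.30 ± 0.45, adjusted p = 4.42e-05). ASB9 and CITED1 were likewise without overlap and higher in beta cells (5.25 ± 0.59, adjusted p = 0.000298, and 4.54 ± 0.65, adjusted p = 0.00129). In alpha cells MS4A1, a gene otherwise known as the B cell marker CD20, was at 36.7, 35.4 and 25.5 TPM against 0 to 2.30 (-4.69 ± 0.43, adjusted p = 6.57e-05). It was the 1 called gene of 15 tested immune markers. The adaptor EFS was at 70.5, 49.1 and 58.2 TPM in alpha cells against 0.413 to 4.66 (-4.66 ± 0.42, adjusted p = 5.91e-05). LRRC39 (-4.70 ± 0.47, adjusted p = 0.000124) and SPAG11B (-4.92 ± 0.54, adjusted p = 0.000232; 2 identifiers share the symbol) were also lower in beta cells.

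Growth genes of the fetus were led by IGF2, insulin-like growth factor 2 (ENSSSCG00000035293.1), an imprinted gene that is the immediate neighbour of INS in the RefSeq gene order of Sscrofa 11.1. It ranged from 1039 to 1719 TPM in beta cells with a median of 1330 and stood at 92.6, 95.0 and 110 TPM in alpha cells. The groups did not overlap, mean TPM differed 13.9-fold, and the log2 difference was 3.76 ± 0.18 (adjusted p = 7.40e-07). TH, tyrosine hydroxylase, the neighbour of INS on the other side, ranged from 0.201 to 25.8 TPM in beta cells and was listed at 0 in the alpha libraries. It was not called (adjusted p = 0.0876) but was called without beta replicate 1 (adjusted p = 0.0341). TH was chosen after its values were seen. PLAGL1, an imprinted zinc finger factor linked to transient neonatal diabetes, ranged from 70.2 to 153 TPM against 0.116, 0.540 and 0.497 (6.24 ± 0.27, adjusted p = 4.66e-07). MEST (1.73 ± 0.18, adjusted p = 0.000167) and the IGF2 mRNA binding proteins IGF2BP2 (0.92 ± 0.15, adjusted p = 0.00302) and IGF2BP3 (1.62 ± 0.28, adjusted p = 0.00435) were also higher in beta cells.

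Not all imprinted genes lay on the beta side. DIRAS3, a maternally imprinted Ras-like GTPase in human, was at 5740, 5150 and 6030 TPM in alpha cells against 905 to 1489 TPM in beta cells, a difference of -2.30 ± 0.19 (adjusted p = 3.09e-05). GNG12, a G protein gamma subunit that lies near DIRAS3 in the same gene order, was at 1852, 1455 and 1469 TPM against 112.7 to 259 (-3.26 ± 0.26, adjusted p = 2.58e-05). Both were chosen after their values were seen, and 2 identifiers share the symbol GNG12, so that its value is uncertain. PEG10 ranged from 426 to 970 TPM in beta cells against 324, 315 and 299 (0.90 ± 0.24, adjusted p = 0.0365); it was also chosen after its values were seen, and its call was lost under median-of-ratios scaling (adjusted p = 0.154) and without beta replicate 3, 4 or 6 or any 1 alpha library (up to 0.0971). Over 24 genes of fetal growth and imprinting, 6 were higher and 2 lower, 25% and 8.33% against 7.12% and 2.92% of all genes, and under median-of-ratios scaling 5 and 5. The 2 lower genes were IGFBP7 and IGFBP1 (-1.32 ± 0.34, adjusted p = 0.0349), which bind insulin-like growth factors; IGFBP1 was lost without beta replicate 2, 4, 5 or 6 or any 1 alpha library (up to 0.104). Neither was called without alpha replicate 1.

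Several glucose handling genes were higher in beta cells at E40. SLC2A2, the glucose transporter GLUT2, ranged from 62.7 to 81.3 TPM against 5.95, 14.04 and 6.05 (2.92 ± 0.25, adjusted p = 4.54e-05). G6PC2, an islet glucose-6-phosphatase, ranged from 10.8 to 68.6 TPM against 2.95, 0.819 and 1.15 (3.42 ± 0.54, adjusted p = 0.00254). PFKFB2, which makes the activator of phosphofructokinase, ranged from 359 to 660 TPM against 55.9, 65.2 and 72.3 (2.85 ± 0.19, adjusted p = 9.52e-06). None of the 3 overlapped. HADH, a mitochondrial fatty acid oxidation enzyme whose loss causes hyperinsulinism, ranged from 532 to 710 TPM against 38.6, 56.5 and 49.7 (3.59 ± 0.16, adjusted p = 4.71e-07). Over the 28 genes of glucose sensing and glycolysis, 8 were higher and 2 lower, 28.6% and 7.14% against 7.12% and 2.92% of all genes, and under median-of-ratios scaling 4 and 4. Their median difference was 0.27, near the 0.32 of all genes. PDK4, which inhibits pyruvate dehydrogenase, was at 261, 259 and 195 TPM in alpha cells against 2.92 to 9.16 in beta cells (-5.33 ± 0.29, adjusted p = 2.10e-06).

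Amino acid genes showed the reverse balance of calls, with 8 of 33 lower in beta cells and 2 higher, shares of 24.2% and 6.06% against 2.92% and 7.12% of all genes. The median difference over the 33 genes was 0.22, near the 0.32 of all genes. GLUD1, glutamate dehydrogenase (ENSSSCG00000010368.3), was at 774, 836 and 907 TPM in alpha cells and at 50.6 to 80.7 TPM in beta cells, a difference of -3.74 ± 0.17 (adjusted p = 5.42e-07). SLC7A8 and SLC3A2, the light and heavy chains of a neutral amino acid exchanger, were at 1436, 922 and 998 TPM and at 343, 410 and 394 TPM in alpha cells. In beta cells SLC7A8 ranged from 60.9 to 126 TPM and SLC3A2 from 36.5 to 69.1 TPM, so that neither overlapped. They differed by -3.68 ± 0.26 (adjusted p = 1.26e-05) and -2.96 ± 0.21 (adjusted p = 1.38e-05). The transporter SLC38A4 was at 177, 119 and 121 TPM against 7.71 to 22.1 (-3.06 ± 0.29, adjusted p = 8.58e-05), and the cationic amino acid transporter SLC7A2 was at 278.9, 272 and 304 TPM against 49.4 to 104 (-1.97 ± 0.21, adjusted p = 0.000177). ASNS, asparagine synthetase, differed by -1.51 ± 0.19 (adjusted p = 0.000590). The same 8 genes were the lower ones under median-of-ratios scaling.

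Among the genes higher in alpha cells was FABP5, a fatty acid binding protein (ENSSSCG00000006153.3), at 1390, 1332 and 1002 TPM in alpha cells against 1.03 to 14.6 in beta cells (-6.88 ± 0.58, adjusted p = 3.91e-05). GC, the vitamin D binding protein, was at 480, 328 and 459 TPM against 0 to 9.97, the highest beta value being in replicate 1 (-7.12 ± 0.59, adjusted p = 3.60e-05). TTR, transthyretin, was high in both cell types, at 2300, 1798 and 2500 TPM against 461 to 948 (-1.52 ± 0.26, adjusted p = 0.00371). None of these 3 overlapped. SERPINA1, alpha-1 antitrypsin, and TF, transferrin, differed by -2.13 ± 0.28 (adjusted p = 0.000714) and -2.01 ± 0.15 (adjusted p = 2.45e-05). TTR, SERPINA1 and TF were the called members of the 14 tested liver and gut endoderm markers, whose median difference was -0.15.

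Of 49 receptor genes, 7 were higher in beta cells and 6 lower, 14.3% and 12.2% against 7.12% and 2.92% of all genes. GHSR, the ghrelin receptor, ranged from 143 to 213 TPM in beta cells against 9.37, 3.53 and 3.29 (4.93 ± 0.28, adjusted p = 2.31e-06). ADRA2A, an adrenergic receptor that restrains insulin release, ranged from 46.1 to 105 TPM against 4.62, 3.84 and 6.79 (3.38 ± 0.28, adjusted p = 3.58e-05). The glucagon receptor GCGR ranged from 5.83 to 16.1 TPM against 0, 0.307 and 0.328 (3.15 ± 0.34, adjusted p = 0.000229), and the receptor GLP1R from 2.98 to 14.7 against 0.0638, 0.425 and 1.09 (2.45 ± 0.47, adjusted p = 0.00811). All 4 were without overlap. GPR119, a lipid-sensing receptor, was at 265, 248 and 160 TPM in alpha cells against 0 to 3.78 (-7.21 ± 0.49, adjusted p = 9.52e-06), and the oxytocin receptor OXTR at 45.5, 30.1 and 33.6 against 0.115 to 2.53 (-4.41 ± 0.40, adjusted p = 6.13e-05). DPP4, the peptidase that inactivates GLP-1, was at 141.2, 128 and 121 TPM in alpha cells against 19.4 to 30.4 (-2.35 ± 0.19, adjusted p = 3.13e-05).

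Of 35 channel genes of excitable endocrine cells, 5 were higher in beta cells and 5 lower, 14.3% each against 7.12% and 2.92% of all genes. The delayed rectifier KCNB2 was lower in beta cells (-0.94 ± 0.14, adjusted p = 0.00196). The leak channel KCNK9 was higher in beta cells, at 18.6 to 38.9 TPM against 0.154, 3.89 and 1.54 (3.34 ± 0.43, adjusted p = 0.000712), and the calcium release channel ITPR1 was higher in alpha cells, at 57.8, 57.7 and 51.1 TPM against 6.77 to 15.8 (-2.40 ± 0.31, adjusted p = 0.000733). Without alpha replicate 1 the counts were 5 and 2. CACNA1C, the main L-type calcium channel (1.37 ± 0.28, adjusted p = 0.0115), was lost without alpha replicate 3 (0.0545).

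Genes of the transmitters GABA and monoamines were called on both sides, 5 of 18 higher and 3 lower, 27.8% and 16.7% against 7.12% and 2.92% of all genes. SLC32A1, the vesicular GABA transporter, was at 5.41, 12.5 and 21.8 TPM in alpha cells and between 0 and 0.637 TPM in beta cells (-3.48 ± 0.42, adjusted p = 0.000431). It also passed the filter on low values only through the alpha libraries and was not tested when any 1 of them was left out. GAD2, which makes GABA, ranged from 19.1 to 109 TPM in beta cells against 0.173, 9.40 and 5.12 (3.07 ± 0.69, adjusted p = 0.0181), a call lost without alpha replicate 1 (2.15, adjusted p = 0.0542). ABAT, which degrades GABA, was also higher in beta cells (2.16 ± 0.26, adjusted p = 0.000407). GCH1, which makes the cofactor of monoamine synthesis, was at 173.9, 102 and 115 TPM in alpha cells against 18.3 to 46.9 (-2.27 ± 0.29, adjusted p = 0.000722). Without alpha replicate 1 the counts were 3 and 1.

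Of 38 genes of the unfolded protein response, 12 were higher in beta cells and 1 lower, 31.6% and 2.63% against 7.12% and 2.92% of all genes, with a median difference of 0.75. HSPA5, the chaperone BiP, ranged from 682 to 1306 TPM against 244, 261 and 293 (1.89 ± 0.21, adjusted p = 0.000298). CALR, calreticulin, ranged from 977 to 1189 TPM against 480, 456 and 432 (1.18 ± 0.13, adjusted p = 0.000245). MANF ranged from 74.4 to 133 TPM against 24.7, 32.8 and 29.7 (1.75 ± 0.21, adjusted p = 0.000473). DNAJC10, an endoplasmic reticulum reductase, was the 1 gene lower in beta cells, at 132 to 202 TPM against 513, 456 and 461 (-1.47 ± 0.16, adjusted p = 0.000245). All 4 were without overlap, and median-of-ratios scaling left 9 genes higher and 1 lower. In the exocytosis list 3 of 28 genes were higher and 1 lower, 10.7% and 3.57% against 7.12% and 2.92% of all genes, among them SYT13 (2.14 ± 0.19, adjusted p = 5.26e-05) and, on the alpha side, the complexin CPLX1 (-1.35 ± 0.25, adjusted p = 0.00613). Median-of-ratios scaling turned this to 1 higher and 4 lower. SNAP25 (1.03 ± 0.21, adjusted p = 0.0122) was lost under that scaling (0.0522) and without alpha replicate 3 (0.0518).

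Cell division genes were expressed in both cell types. MKI67, a marker of cycling cells, ranged from 45.0 to 68.6 TPM in beta cells and stood at 22.8, 43.9 and 24.2 TPM in alpha cells, a difference of 0.98 ± 0.22 (adjusted p = 0.0195). Of 42 cell division genes, 3 were called higher in beta cells (MKI67, MCM3 and TPX2), 7.14% against 7.12% of all genes, and none lower. Under median-of-ratios scaling none of the 42 was called. The call of MKI67 was lost without alpha replicate 1 or 3 (0.0781), that of MCM3 (adjusted p = 0.0177) likewise (0.0664), and that of TPX2 (adjusted p = 0.0372) without any library except beta replicate 2 and alpha replicate 2 (up to 0.13). BTG1, an antiproliferative gene, was also higher in beta cells (0.97 ± 0.19, adjusted p = 0.00871), and under median-of-ratios scaling by 0.68 (adjusted p = 0.0480). The symbol BTG1 is shared by 2 identifiers, so that its value is uncertain.

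**Figure D3:**
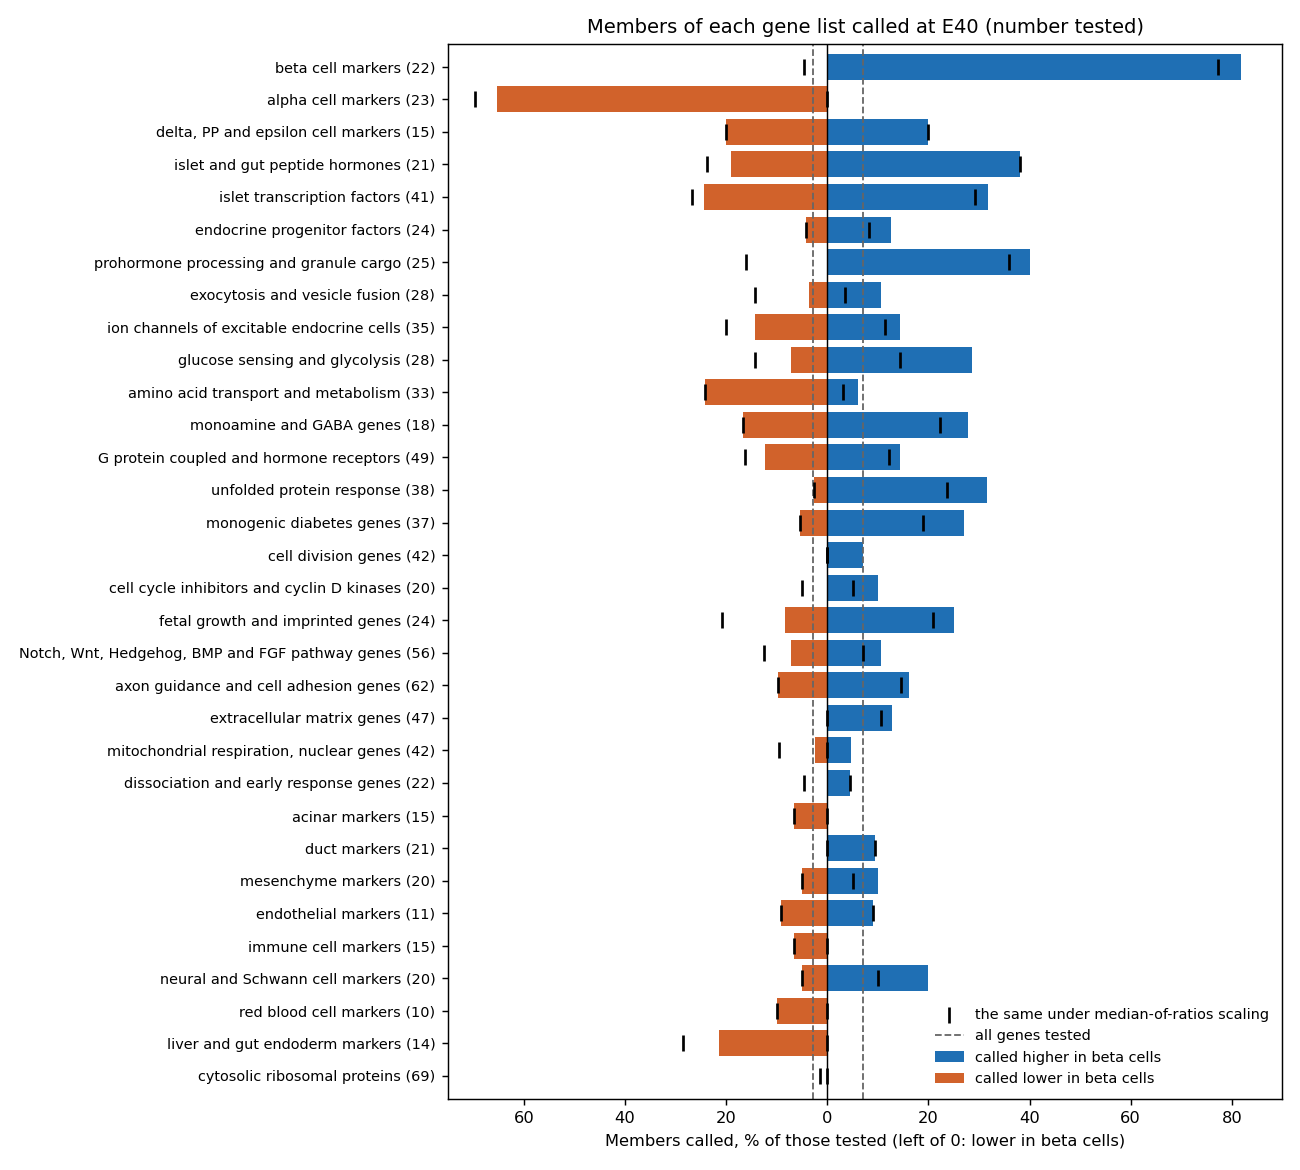
Share of tested members called higher in beta cells (to the right) and lower (to the left) at E40 for each gene list, in percent; black ticks give the same under median-of-ratios scaling and dashed lines the shares over all 14879 genes, 7.12% and 2.92%. Besides the cell type marker lists, amino acid genes extend to the left (24.2%), unfolded protein response genes to the right, and transcription factors both ways. The transcription factor list shares genes with the marker lists.

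Markers of other pancreatic cell types were present at uneven levels. Over 20 acinar markers the summed level ranged from 86.2 to 2364 TPM in beta libraries and from 508 to 960 TPM in alpha libraries, most of it CPA1, a marker of acinar and early progenitor cells. Beta replicate 2 was lowest for CPA1 (50.4 TPM against a beta median of 1067) and for SOX9 (0.835 TPM against 31.0), a duct and progenitor factor. CPA1 was not called (adjusted p = 0.668) but was higher in beta cells without that library (adjusted p = 0.0464). Over 23 duct markers the sums were 394 to 1292 and 676 to 831 TPM, over 18 endothelial markers 370 to 555 and 71.1 to 122 TPM (without ESM1, 46.5 to 103 in beta and 70.8 to 120.5 in alpha libraries), and over 23 immune markers 61.6 to 109 and 68.1 to 90.1 TPM. The 15 red blood cell markers summed to 101 to 1216 TPM in beta libraries, the highest in beta replicate 1 with 823 TPM of HBA2, and to 79.9 to 304 TPM in alpha libraries. PTPRC, the pan-leukocyte marker, was at most 3.59 TPM in any library. The part of these cells in the differences above was not tested.

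Mitochondrially encoded transcripts took 13.2 ± 2.16% of TPM in beta libraries (SD, n = 6) and 16.9 ± 1.24% in alpha libraries (SD, n = 3). The difference of -3.72 percentage points gave p = 0.0238 in a two-sided exact permutation test, the smallest that 84 splits allow. Of 13 mitochondrially encoded genes tested one by one, none was called by limma, and their median difference was -0.33. Ribosomal protein transcripts took 5.83 ± 0.836% and 5.69 ± 0.916% (two-sided exact permutation test, p = 0.81). None of the 69 tested ribosomal protein genes was called by limma. Adjusted over these 2 tests, the p-values were 0.0476 and 0.81.

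The same contrast at embryonic day 70 (E70; 5 beta and 5 alpha libraries, none shared with E40) was used to ask where E40 differs from a later fetal age. At E70, 1577 of 16116 genes were called (9.79%), 635 higher in beta cells (3.94%) and 942 lower (5.85%). Of the 1060 genes higher at E40, 340 were also higher at E70, which is 32.08% of the E40 list and 53.54% of the E70 list. Of the 434 lower genes, 285 were also lower at E70, 65.67% and 30.25% of the lists. Over the 14879 genes tested at E40 the median difference was 0.32 at E40 and -0.075 at E70. The overlaps were not counted on a common centre, so the shares of the higher and lower genes cannot be set against each other. Between the ages 445 genes (2.76%) differed in their beta-alpha difference by the interaction test, 371 (2.30%) with a more positive difference at E40 and 74 (0.459%) with a more negative one. The median interaction over all genes was 0.35, and median-of-ratios scaling left 65 and 114. Each gene named below was called in the interaction under that scaling, under quantile normalization and without any 1 of the 19 libraries, unless stated.

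IGF2 separated the cell types at E40 and overlapped between them at E70. At the later age it ranged from 937 to 1652 TPM in beta cells and from 1123 to 2089 TPM in alpha cells (-0.40 ± 0.19, adjusted p = 0.227). The difference between the ages was 4.16 ± 0.28 (adjusted p = 1.24e-07). PCDH17 followed the same course, with 25.9 to 42.1 TPM in beta and 27.6 to 84.1 TPM in alpha cells at E70 and a difference between ages of 5.01 ± 0.55 (adjusted p = 9.01e-05). PCSK1 kept its direction at E70, 312 to 501 TPM against 6.27 to 11.1 TPM, but the difference between cell types was larger at E40 by 3.16 ± 0.31 (adjusted p = 2.60e-05). NELL1, ROBO1 and SEMA3A also differed by more at E40, with 3.19 ± 0.43 (adjusted p = 0.000907), 2.78 ± 0.42 (adjusted p = 0.00218) and 2.81 ± 0.55 (adjusted p = 0.0101). PEG10 was higher in beta cells at E40 and lower at E70, at 87.7 to 297 TPM against 408 to 696 TPM, an interaction of 2.72 ± 0.47 (adjusted p = 0.00551).

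On the alpha side the E40 excess of FABP5 was larger than that at E70, where the gene ranged from 3.37 to 33.6 TPM in beta and from 68.4 to 151 TPM in alpha cells (interaction -4.51 ± 0.82, adjusted p = 0.00726). SLC3A2 also had the larger difference at E40, since beta cells held 162.2 to 257 TPM and alpha cells 396 to 599 TPM at E70 (-1.59 ± 0.27, adjusted p = 0.00414). SLC32A1 and FOXA1 were called in alpha cells at E40 and not at E70, with interactions of -3.77 ± 0.72 (adjusted p = 0.00942) and -2.65 ± 0.56 (adjusted p = 0.0160). MAFA reached 8.49 to 17.6 TPM in beta cells at E70 and at most 0.171 TPM in alpha cells, an interaction of -3.15 ± 0.55 (adjusted p = 0.00565). PYY, at 0 to 11.6 TPM in beta and 1.13 to 18.4 TPM in alpha cells at E70, also differed between the ages (-3.98, SE 0.999, adjusted p = 0.0399), but this call was lost when alpha replicate 1 at E40 (0.0928) or any of 12 other libraries was left out. MRAP2, an accessory protein of melanocortin receptors, was not called at E40 (adjusted p = 0.833) and at E70 stood at 1.61 to 5.27 TPM in beta and 40.7 to 72.2 TPM in alpha cells (3.79 ± 0.55, adjusted p = 0.00165).

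**Figure D4:**
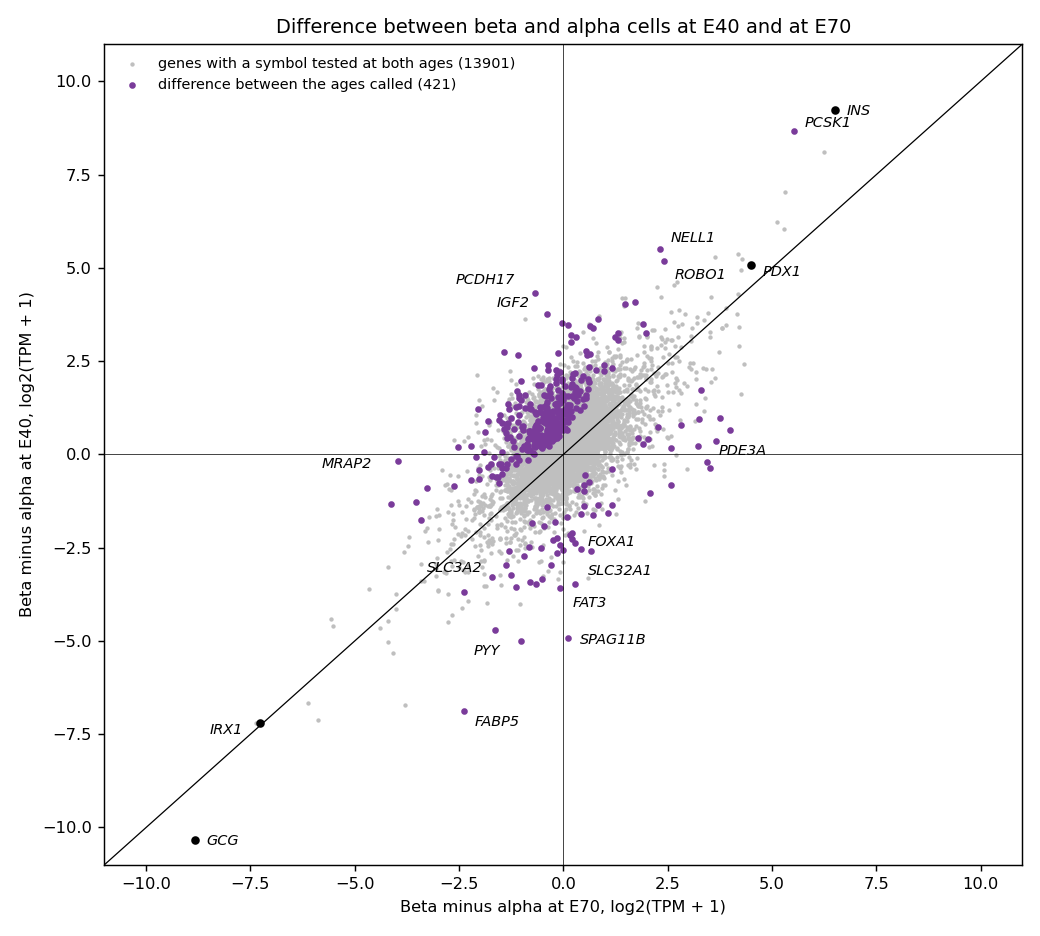
Log2(TPM + 1) difference between beta and alpha cells at E40 (vertical axis) against that at E70 (horizontal axis) for 13901 genes with a symbol tested at both ages; each point is a gene, purple points are the 421 whose difference between the ages was called, and labelled black points are identity genes not called. IGF2, PCDH17 and PCSK1 lie above the line of equal differences and FABP5, PYY and SLC3A2 below it.

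Other identity genes did not pass the interaction test. INS differed between cell types by 6.52 at E70 against 9.24 at E40 (interaction 2.73 ± 0.86, adjusted p = 0.0886), which was called without alpha replicate 1 (3.93, adjusted p = 0.00767). The interactions of GCG (-1.496 ± 1.56, adjusted p = 0.628), UCN3 (0.23 ± 0.30, adjusted p = 0.708) and GLUD1 (0.28 ± 0.29, adjusted p = 0.624) were not called. A p above the threshold does not show that the differences were equal. PPY at E70 ranged from 0 to 386 TPM in beta cells and 217 to 612 TPM in alpha cells, and FEV from 12.5 to 20.4 and 2.95 to 35.0 TPM; neither interaction was called (adjusted p = 0.456 and 0.0523).

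**Figure D5:**
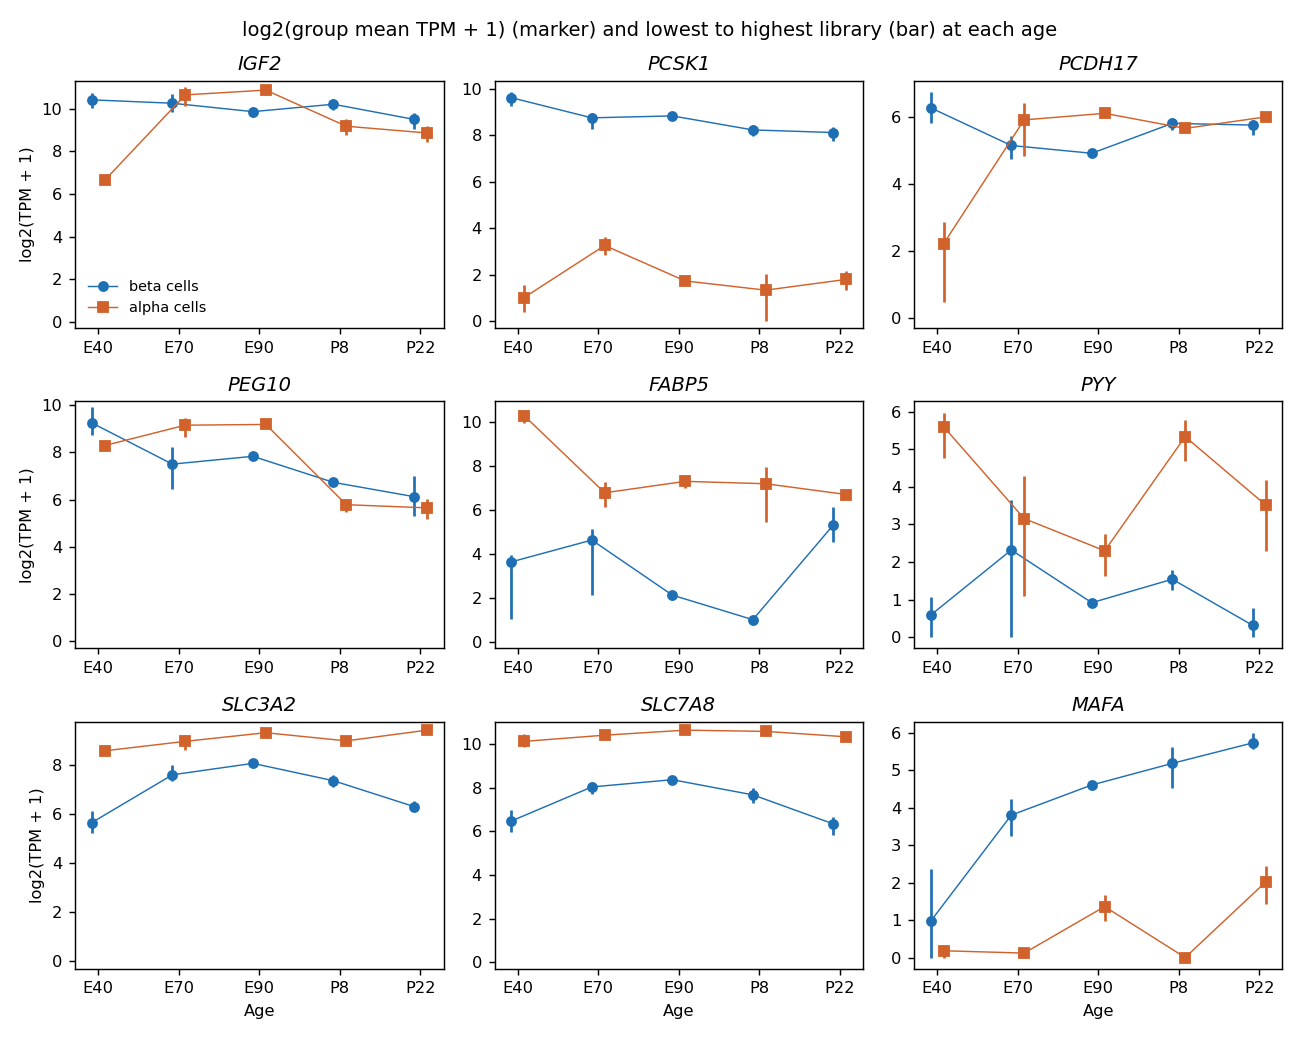
Level of 9 genes in beta and alpha cells at 3 fetal ages (E40, E70 and E90) and on postnatal days 8 and 22 (P8, P22), as log2(mean TPM + 1) with bars from the lowest to the highest library. The gap between the cell types at E40 gives way to overlapping libraries at E70 for IGF2 and PCDH17 and is reversed for PEG10, while PCSK1, SLC3A2 and SLC7A8 keep their direction.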

How the data were processed

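The values were TPM deposited by the authors as 1 table of 22630 genes by 37 libraries; quantification was with Salmon 0.11.3, per the submitters' processing notes. Per the labels' protocols, total RNA was extracted with a RecoverAll kit, made into libraries with a SMARTer stranded kit and sequenced as paired 75 bp reads on a NextSeq. Genome build and annotation: not given in the sources used here. TPM sum to 1000000 per library and keep no depth, so the depth is unknown and no sampling error could be given for single values. Symbols are those of the table, with 168 more from an Ensembl name list; where identifiers share a symbol, the one with the highest mean TPM was used.

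Genes at 1 TPM or more in at least 3 of the 9 libraries (14879) were fitted with limma 3.58.1 (R 4.3.3) on log2(TPM + 1), 1 mean per group, eBayes with trend, 7 residual degrees of freedom, and Benjamini-Hochberg adjustment over all genes. Some genes, such as GLI2, SLC32A1 and RSPO3, were below 1 TPM in every library of 1 cell type. They passed this filter only through the other cell type, where they were high. The interaction with E70 used 19 libraries, 16116 genes and 15 residual degrees of freedom. Library shares were compared with exact permutation tests (Python 3.11.15, scipy 1.17.1). The procedure was also run on simulated data with independent normal noise and no shift of the centre, unlike these data. The outcome of that run is not reported here. The groups, lists and named genes were chosen with earlier results of these data known. The rule for names took the 15 largest called differences each way with a mean of at least 10 TPM in the higher group, the 6 members of each list with the lowest adjusted p, islet hormones and transcription factors, defining markers of other cells, and the 8 largest interactions each way; which of the eligible genes appear was decided with the values in view. Some eligible genes are not reported here. Alternatives were another pseudocount, other filters, median-of-ratios and quantile scaling, dropping hormone and mitochondrial transcripts, array weights, a fit of all 12 groups, robust moderation, a replicate block, removal of low sample numbers and of each library in turn; leaving out beta replicate 1 and alpha replicate 1 together was chosen after seeing the data.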

Additional observations from a re-analysis of the deposited data

Results flagged for a closer look

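In 23 of 165 sets of 6 beta values at E40 (a gene or a library share), 1 library stood apart from the other 5 by Dixon's gap test. For independent sets of normally distributed values chance gives about 1 in 20. The values were not log-transformed and the sets share the same 6 libraries, so the 23 cannot be judged against that rate. Most of the 23 were in beta replicate 1. That library was lowest for the share of mitochondrially encoded transcripts (8.93%). It was highest for GCG (2297 TPM), SST (230 TPM), IRX2 (7.73 TPM), FEV (14.3 TPM), NEUROG3 (29.9 TPM), MEIS2 (114 TPM) and GC (9.97 TPM). The same library was highest for COL4A2 (63.2 TPM), MFAP4 (28.6 TPM), PECAM1 (18.2 TPM), HBA2 (823 TPM), HBB (256 TPM), GAD2 (109 TPM) and EFS (4.66 TPM). Beta replicate 2 was highest for SCG2 (5215 TPM), ESM1 (498 TPM), GPD2 (76.2 TPM), SERPINA1 (165 TPM) and SLC18A1 (8.52 TPM) and lowest for EGFL7 (12.3 TPM). Beta replicate 3 was highest for TH (25.8 TPM) and lowest for FABP5 (1.03 TPM).

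For 38 of the 171 named genes the beta-alpha difference at E40 differed from that at E70 by the interaction test of limma, against 2.76% of all genes; the largest interactions were among the reasons for naming a gene, so the share says nothing about these genes. With a more positive difference at E40 these were, besides IGF2 (4.16), PCSK1 (3.16), PCDH17 (5.01), NELL1 (3.19), ROBO1 (2.78), SEMA3A (2.81), MRAP2 (3.79) and PEG10 (2.72), the genes TMEM114 (4.17), TESC (3.34), SORCS1 (3.27), RGS16 (2.85), IGFBP1 (2.80), DLL4 (2.10), GPD2 (1.38) and CALR (0.80). With a more negative one they were, besides FABP5 (-4.51), SLC32A1 (-3.77), MAFA (-3.15), FOXA1 (-2.65) and SLC3A2 (-1.59), the genes SPAG11B (-5.03), FAT3 (-3.48) and PDE3A (-3.65). These 24 calls were kept in each fit that left out 1 library; those of CALR and IGFBP1 ended under median-of-ratios scaling (adjusted p = 0.382 and 0.0680). The other 14 were lost in at least 1 such fit, PCSK2 in 11, FOXO1, LRRC39 and TEX35 in 12, PYY and NKX2-2 in 13, MANF and SELENOM in 15 and EGFL7 in 16 of the 19 fits. The interactions of the 14 were as follows: PYY (-3.98), PCSK2 (1.16), NKX2-2 (0.93), FOXO1 (1.11), SLC7A8 (-1.30), CACNA2D1 (1.39), MANF (1.17), EGFL7 (-1.07), LRRC39 (-3.06), ADGRL3 (3.74), SELENOM (3.57), TEX35 (-3.88), CD55 (-3.39) and NR4A2 (1.68). SLC7A8 and NR4A2 were lost without alpha replicate 1 of E40 alone (adjusted p = 0.0789 and 0.0633), CACNA2D1 also without alpha replicate 5 of E70 (up to 0.0841), ADGRL3 also without beta replicate 3 or 5 or alpha replicate 4 of E70 (up to 0.0844), and CD55 also without beta replicate 1, 3 or 5 or alpha replicate 3 or 4 of E70 (up to 0.0866). SELENOM was at 0.391 TPM in alpha replicate 1 at E40 against 40.4 and 34.2 TPM in the other alpha libraries, and its interaction was 1.98 without it. The symbol ADGRL3 is shared by 2 identifiers, so that its value is uncertain.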

How the results depend on the processing

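The 1494 genes called at E40 became 3362 with array weights and 2549 with all 12 groups in the fit. Leaving out 1 library gave 990 (without alpha replicate 1) to 1334. Quantile normalization kept a like number, 1255, with 576 higher and 679 lower. The libraries with adjacent sample numbers, 3 of each type, gave 680 called genes and 324 with the number pair as a replicate block; nothing in the labels says that these numbers pair the libraries, and the deviations of the 3 pairs correlated at 0.0698, 0.177 and 0.133. The share of genes called in the interaction, 2.76% (445 genes), became 1.11% under median-of-ratios scaling, 1.07% under quantile normalization, 1.30% without the low sample numbers, 4.80% with a replicate block by duplicateCorrelation (consensus 0.161) and 21.8% with the mean of the 4 later ages in place of E70. Leaving out 1 library gave 1.498% (241 genes, without alpha replicate 1 of E40) to 3.57% (574 genes, without alpha replicate 2 of E40); without beta replicate 1, 4 or 5 of E70 the counts were 291, 274 and 282, and without alpha replicate 4 or 5 of E70 289 and 249. The cause was not tested. The difference in mitochondrial share was -2.80 points without the low sample numbers (exact permutation test, p = 0.0571, the smallest that 4 against 3 allow) and -4.37 to -2.86 with 1 library left out (exact p from 0.0357 to 0.0714; 6 against 2 cannot go below 0.0714). The difference in ribosomal protein share, 0.139, turned to -0.271 after removal of hormone genes and ranged from -0.379 to 0.488 with 1 library left out, below 0 without beta replicate 4 (-0.0931) or alpha replicate 1. Of 170 named genes 139 were called at E40, 118 of them in every fit that left out 1 library and tested them. Among the 118, GLI2 and SLC32A1 were tested in only 6 such fits, since they were not tested without any 1 alpha library. No named gene changed direction with a call in any alternative run. The depth of the libraries is unknown, so no limit from sampling error could be set for genes near 0.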

Other observations

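Levels at the later ages, where each group has 2 or 3 libraries, were not compared by a test. IGF2 ranged from 795 to 1077 TPM in beta cells and from 1611 to 2172 TPM in alpha cells at embryonic day 90 (E90). At postnatal day 8 (P8) it was at 981 to 1404 TPM in beta cells and 437 to 726 TPM in alpha cells, and at postnatal day 22 (P22) at 525 to 889 and 348 to 586 TPM. PEG10 was at 225.6 to 229.5 TPM in beta cells and 581 to 583 TPM in alpha cells at E90, and at 97.6 to 113.1 and 44.1 to 64.3 TPM at P8. PCDH17 was at 27.6 to 31.0 TPM in beta and 62.3 to 74.2 TPM in alpha cells at E90, and at 48.0 to 62.6 and 48.8 to 50.6 TPM at P8.

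SLC7A8, which stood at 60.9 to 126 TPM in beta cells at E40, was at 303 to 358 TPM there at E90 and at 55.9 to 101 TPM at P22, while the alpha libraries of those ages held 1494 to 1702 and 1157 to 1431 TPM. FOXA1 was at most 1.76 TPM in any beta library and at most 0.487 TPM in any alpha library at E90. SLC32A1 was at most 0.294 TPM in the beta and alpha libraries of E90, P8 and P22, against 5.41 to 21.8 TPM in alpha cells at E40. PYY was at 24.9 to 54.1 TPM in alpha cells at P8 and at 2.12 to 5.73 TPM at E90.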
